A study of Homo sapiens with 6 samples.

Results

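Integrins are the receptors that hold a fibroblast to its matrix, and 43 genes for integrin subunits and for the adaptor proteins at their cytoplasmic tails were followed in colon fibroblasts depleted of *LTBP2*. The members were taken by symbol from the 60663 genes counted. They are 17 alpha subunits, 7 beta subunits and 19 adaptors of focal adhesions, while *ITGA6* and *ITGB4*, the subunits of hemidesmosomes, were kept out. In siLTBP2 cells *ITGB1*, the beta subunit shared by most matrix receptors, was 1.87-fold higher, and alpha subunits moved in both directions: *ITGA3* and *ITGA2* rose while *ITGA8*, *ITGA1* and *ITGAV* fell. Among the adaptors *ILK* and *TLN1* rose and *TNS3*, *TNS1*, *PXN*, *TGFB1I1* and *FERMT1* fell. When each library was left out in turn, *ITGB1*, *ITGA3*, *ILK*, *ITGA1* and *TNS3* kept their calls throughout. Each of the other genes named as rising or falling lost its call in at least 1 of these fits.

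CCD18Co, a human fibroblast line from normal colon, was exposed for 6 h to Lipofectamine 2000 with an siRNA pool directed at *LTBP2* (siLTBP2) or with a pool that has no target (siNT). Cells were washed and frozen 48 h after transfection. Each group has 3 libraries, numbered 1 to 3, both groups carry the transfection reagent and an siRNA pool, and these libraries include no untransfected cells and only 1 pool against *LTBP2*. Whether the libraries of a group come from separate cultures is not stated, so that p-values measure only the spread between these libraries, which may be technical.

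An integrin is a pair of 1 alpha and 1 beta subunit, and the pair decides which ligand is bound: collagens, laminins, or proteins such as fibronectin and vitronectin that carry the RGD sequence. Inside the cell talins and kindlins bind the beta tail and switch the receptor on, and the complex of integrin-linked kinase, PINCH and parvin, with vinculin, paxillin and tensins, ties it to actin. In gut fibroblasts these contacts carry traction on the matrix and the assembly of fibronectin fibrils, and several RGD receptors release TGF-beta from its latent complex. Other LTBP proteins are part of that complex, whereas LTBP2 does not bind latent TGF-beta and is known from elastic microfibrils.

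Values are TMM-normalized CPM, the reads of a gene scaled to a common library size, and library totals lay between 44663424 and 53576899 counts. The targeted gene was checked first: *LTBP2* stood at 25.0, 23.1 and 21.2 CPM in siNT libraries 1 to 3 and 6.49, 8.61 and 6.00 CPM in the siLTBP2 libraries, a log2 fold change of -1.72 ± 0.15 SE (adjusted p = 6.6e-05). The groups did not overlap (two-sided p = 0.1 by an exact permutation test, as low as 3 libraries against 3 can go), and 30.4% of the siNT level remained. The cells carried their label's markers, with 10 of 10 fibroblast genes at a mean of at least 1 CPM and a summed level of 9959 to 13222 CPM in siNT and 10098 to 14431 CPM in siLTBP2. *EPCAM* and *KRT20* (epithelium), *PTPRC* (leukocytes), *PECAM1* (endothelium), *MYH11* (smooth muscle) and *SOX10* (Schwann cells) were at 0 or below 0.5 CPM in every library. Summed levels moved with the group for the 8 epithelial genes (40.3 to 52.8 CPM in siNT and 85.9 to 99.4 CPM in siLTBP2, mostly *KRT18*) and for the 6 smooth muscle and pericyte genes (53.9 to 58.8 CPM in siNT and 81.4 to 89.3 CPM in siLTBP2, mostly *ACTG2* and *MCAM*). The 6 endothelial genes, nearly all of it *TEK*, summed to 67.5 to 83.6 CPM in siNT and 59.9 to 74.3 CPM in siLTBP2, and 7 leukocyte genes to at most 0.613 CPM in any library. The part of these shifts in the results below was not tested. In bulk RNA, fewer cells of a kind and less RNA per cell cannot be told apart.

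Of the 43 members, 34 had enough counts to be tested and 9 did not. Untested were *ITGA2B*, *ITGA9*, *ITGAD*, *ITGAL*, *ITGAM*, *ITGAX*, *ITGB6*, *ITGB7* and *ITGB8*, most of them subunits best known from platelets, leukocytes and epithelia, among which no library held more than 10 reads of any gene and *ITGAD* had none. All 19 adaptors were tested. Tested, but also near the lower limit, were *ITGA7* (0.489 to 0.560 CPM from siNT to siLTBP2), *ITGB2* (1.27 to 1.53 CPM), *FERMT3* (1.13 to 0.741 CPM) and *ITGA10* (2.40 to 3.27 CPM).

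At an adjusted p below 0.05 in edgeR's quasi-likelihood test, 14 of the 34 tested members (41.2%) were called, 6 higher and 8 lower in siLTBP2. Over all 16920 genes tested 19.3% were called, 9.76% higher and 9.51% lower, and among protein-coding genes with a mean of at least 10 CPM 25.5%. The members were chosen with earlier results of these data known, so a higher share among them is no independent evidence. None of the 34 reached an adjusted p below 0.01 together with a fold change above 2, a bar that 2.57% of all genes passed, and DESeq2 also gave 0, but the likelihood ratio test and the fit with no filter each gave 1, *ITGA8*, while 18 members had an unadjusted p below 0.05 (32.3% of all genes). With the limit at an adjusted p of 0.01 and any fold, 5 members were called: *ITGB1*, *ITGA3* and *ILK* higher, *ITGA1* and *TNS3* lower. In 19 members the groups did not overlap, against 37% of all genes. The median log2 fold change of the 34 was -0.05 (all genes -0.01) and the median of its absolute value 0.28 (all genes 0.23), with extremes of -1.13 in *ITGA8* and 0.90 in *ITGB1*. By class, 2 of 11 tested alpha subunits rose and 3 fell, 2 of 4 beta subunits rose and none fell, and 2 of 19 adaptors rose and 5 fell. The plot of levels by library shows all 34.

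**Figure D1:**
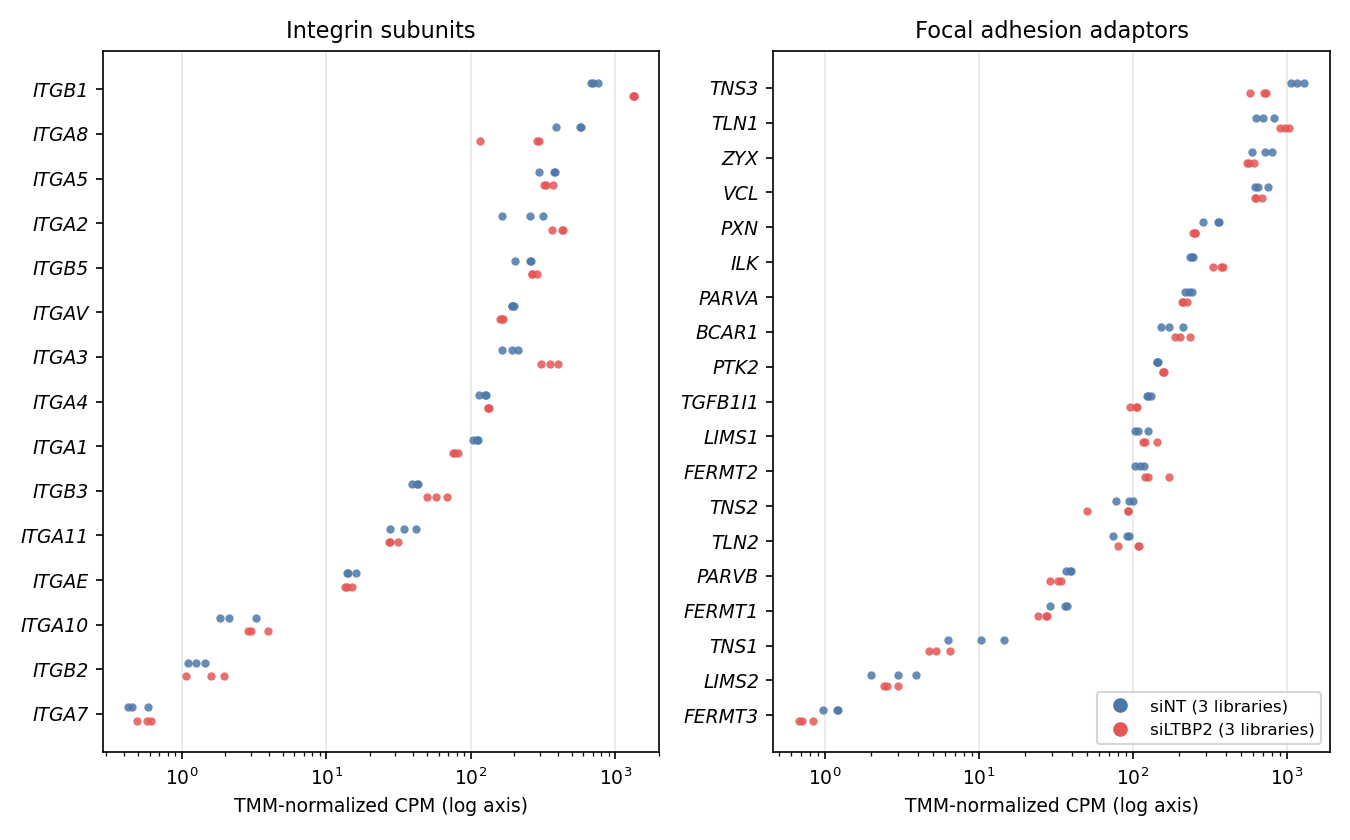
TMM-normalized CPM (log axis) of the 15 tested integrin subunits (left) and 19 adaptors (right) in each of the 3 siNT (blue) and 3 siLTBP2 (red) libraries, ordered by mean level. The red points of *ITGB1*, *ITGA3* and *ILK* lie to the right of all blue points, those of *TNS3* and *ITGA1* to the left, and those of *VCL* and *ITGA5* among them.

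Beta subunits were read first, since each alpha chain needs one to reach the surface. *ITGB1* (ENSG00000150093, chr10:32887273-33005792, minus strand, 16 exons of the canonical transcript in GRCh38) encodes the partner of the collagen, laminin and fibronectin receptors. It stood at 677, 704 and 763 CPM in siNT libraries 1 to 3 and 1343, 1315 and 1347 CPM in the siLTBP2 libraries. The siLTBP2 libraries lay close together and far above the highest siNT library. Its log2 fold change was 0.90 ± 0.09 SE (adjusted p = 0.000176), the smallest p among the members. *ITGB3* (ENSG00000259207, chr17:47253827-47313743, plus strand, 15 exons), which pairs with *ITGAV* in the vitronectin receptor, stood at 39.3, 43.4 and 42.7 CPM in siNT libraries 1 to 3 and 50.1, 57.6 and 68.0 CPM in the siLTBP2 libraries. All siLTBP2 libraries were above all siNT libraries, with library 3 the highest. The log2 fold change was 0.49 ± 0.11 SE (adjusted p = 0.0131), and the call was lost at 0.44 without siNT library 1. *ITGB5*, the other vitronectin receptor subunit, averaged 240.4 ± 34.0 CPM in siNT against 274 ± 12.8 CPM in siLTBP2 (SD, n = 3), and although the groups did not overlap its log2 fold change of 0.19 ± 0.11 SE (adjusted p = 0.278) was not called.

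Among the alpha subunits of collagen receptors *ITGA1* and *ITGA2* moved in opposite directions. *ITGA1* (ENSG00000213949, chr5:52787916-52959209, plus strand, 29 exons), which binds chiefly basement membrane collagen IV, stood at 113, 103 and 110.0 CPM in siNT libraries 1 to 3 and 77.2, 81.6 and 74.9 CPM in the siLTBP2 libraries. Each group was tight, and no siLTBP2 library came near the lowest siNT library. It fell by a log2 fold change of -0.48 ± 0.08 SE (adjusted p = 0.00235), and 499 of its exonic bases are shared with *PELO* on the same strand, which had a mean of 54.3 CPM and a log2 fold change of -0.05. *ITGA2* (ENSG00000164171, chr5:52989340-53094779, plus strand, 30 exons), which binds chiefly fibrillar collagen I, stood at 256, 164 and 316 CPM in siNT libraries 1 to 3 and 434, 364 and 429.8 CPM in the siLTBP2 libraries. The siNT libraries were spread widely, with library 2 the lowest, and the groups did not overlap. Its log2 fold change was 0.74 ± 0.19 SE (adjusted p = 0.0216), and the call was lost at 0.76 without siNT library 1. The ratio of *ITGA2* to *ITGA1* CPM, a pair chosen after the values were seen, was 2.24 ± 0.64 in siNT and 5.27 ± 0.71 in siLTBP2 (SD, n = 3). *ITGA11* (ENSG00000137809, chr15:68296532-68432163, minus strand, 30 exons), a collagen I receptor of fibroblasts, stood at 34.6, 27.6 and 41.5 CPM in siNT libraries 1 to 3 and 27.2, 27.5 and 31.5 CPM in the siLTBP2 libraries. The groups overlapped, and the log2 fold change of -0.27 ± 0.14 SE (adjusted p = 0.213) was not called, nor was that of *ITGA10*, a chondrocyte collagen receptor (0.44, adjusted p = 0.229).

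*ITGA3* (ENSG00000005884, chr17:50055968-50090481, plus strand, 26 exons), a receptor for laminins, rose with *ITGB1* and by nearly the same fold. It stood at 213, 163 and 194 CPM in siNT libraries 1 to 3 and 399, 353 and 304 CPM in the siLTBP2 libraries. The lowest siLTBP2 library exceeded the highest siNT library, though each group had a spread of its own, with siNT library 2 and siLTBP2 library 3 the lowest. The log2 fold change was 0.89 ± 0.13 SE (adjusted p = 0.000914). *ITGA7*, a laminin receptor of muscle, had few reads and was not called (0.19, adjusted p = 0.68), and it shares 119 exonic bases with the opposite *BLOC1S1*, counted at a mean of 12.9 CPM. For comparison, *ITGA6*, the laminin receptor subunit kept out of the members, stood at 119, 98.3 and 124 CPM in siNT libraries 1 to 3 and 523, 495 and 469.5 CPM in the siLTBP2 libraries and rose by a log2 fold change of 2.12 ± 0.11 SE (adjusted p = 5.39e-06), while its hemidesmosome partner *ITGB4* averaged 0.941 ± 0.106 CPM in siNT against 0.387 ± 0.0581 CPM in siLTBP2 (SD, n = 3, log2 fold change -1.29, adjusted p = 0.00672), so that the 2 subunits moved apart and the second was below 1 CPM on average in both groups.

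Of the alpha subunits that read RGD, none rose. *ITGA8* (ENSG00000077943, chr10:15513954-15719922, minus strand, 30 exons), a receptor for nephronectin and fibronectin found on mesenchymal and smooth muscle cells, had the lowest log2 fold change of all members. It stood at 579.7, 565 and 389.5 CPM in siNT libraries 1 to 3 and 298, 286 and 116 CPM in the siLTBP2 libraries. The groups did not overlap, but library 3 was the lowest in each of them, and siLTBP2 library 3 was far below the other siLTBP2 libraries. The log2 fold change was -1.13 ± 0.29 SE (adjusted p = 0.0212), the call was lost at -1.04 without siNT library 1 and -1.05 without siNT library 2, and without siLTBP2 library 3 it held at -0.81. *ITGAV* (ENSG00000138448, chr2:186590010-186680901, plus strand, 30 exons), the alpha chain of the vitronectin receptors that free TGF-beta, stood at 193, 200.4 and 192 CPM in siNT libraries 1 to 3 and 165, 168 and 160.1 CPM in the siLTBP2 libraries. Both groups were tight and did not overlap. The difference was small, with a log2 fold change of -0.25 ± 0.08 SE (adjusted p = 0.0461), and the call was lost in each of the 6 fits without 1 library (-0.26 without siNT library 1, -0.23 without siNT library 2, -0.26 without siNT library 3, -0.25 without siLTBP2 library 1, -0.27 without siLTBP2 library 2 and -0.23 without siLTBP2 library 3) and with RLE factors (-0.25) or no filter (-0.26). *ITGA5* (ENSG00000161638, chr12:54395261-54419266, minus strand, 30 exons), the fibronectin receptor, stood at 385, 295 and 378 CPM in siNT libraries 1 to 3 and 329, 319 and 371 CPM in the siLTBP2 libraries. Its groups overlapped, with siNT library 2 the lowest of the 6, and the log2 fold change was -0.05 ± 0.12 SE (adjusted p = 0.8).

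The remaining alpha subunits with counts, *ITGA4* (122 ± 7.77 CPM in siNT against 132 ± 0.910 CPM in siLTBP2, SD, n = 3), which binds fibronectin and VCAM1, and *ITGAE* (14.7 ± 1.23 CPM in siNT against 14.1 ± 0.772 CPM in siLTBP2), the E-cadherin receptor of intraepithelial lymphocytes, were not called (log2 fold changes 0.11 and -0.06, adjusted p = 0.395 and 0.752). The groups did not overlap in *ITGA4*, with every siLTBP2 library above every siNT library. The leukocyte beta subunit *ITGB2* was not called either (0.26, adjusted p = 0.523). *ITGAE* shares 427 exonic bases with *HASPIN* on the opposite strand, which had a mean of 22.03 CPM, and whether reads were counted by strand is not given in the sources used here.

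Levels of different genes can be set side by side only per length, here as CPM per kilobase of the canonical transcript. On this scale *ITGB1* was the most abundant subunit, at 191 ± 11.7 CPM per kb in siNT and 358 ± 4.74 in siLTBP2 (SD, n = 3). Among the alpha subunits the highest in siNT were *ITGA5* (83.0 ± 11.7) and *ITGA8* (78.1 ± 16.2), which did not differ beyond their spread, then *ITGA3* (38.9 ± 5.14) and *ITGA2* (31.3 ± 9.73), which did not either. In siLTBP2 the order of these alpha subunits by mean was *ITGA5* (80.0 ± 6.43), *ITGA3* (72.0 ± 9.67), *ITGA2* (52.2 ± 5.00) and *ITGA8* (35.6 ± 15.5). Neither *ITGA5* and *ITGA3* nor *ITGA2* and *ITGA8* differed beyond their spread there. By mean *ITGA8* went from beside the first of the 4 to the last.

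Summed over the member alpha subunits, the level per kilobase was 295 ± 23.7 in siNT and 297 ± 18.8 in siLTBP2 (SD, n = 3), with 319.7, 272 and 293 in siNT libraries 1 to 3 against 317, 295 and 279 in the siLTBP2 libraries. The groups overlapped. The sum over the beta subunits was 253 ± 15.8 in siNT and 429.5 ± 7.60 in siLTBP2, with 246, 242 and 271 in siNT libraries 1 to 3 against 429, 422 and 438 in the siLTBP2 libraries, and the groups were far apart. Within the alpha sum the share of *ITGA8* was 26.6% ± 5.77 in siNT and 11.8% ± 4.75 in siLTBP2, that of *ITGA3* 13.2% ± 0.767 in siNT and 24.1% ± 1.75 in siLTBP2 and that of *ITGA2* 10.6% ± 3.04 in siNT and 17.6% ± 1.96 in siLTBP2, none of which overlapped between the groups, while *ITGA5* held 28.1% ± 2.45 in siNT and 27.1% ± 3.67 in siLTBP2 and overlapped. *ITGB1* made up 75.7% ± 2.24 in siNT and 83.2% ± 0.746 in siLTBP2 of the beta sum, and the share of *ITGB5* was 21.4% ± 2.41 in siNT and 14.3% ± 0.452 in siLTBP2. Those member alpha subunits that are known to pair with *ITGB1* summed to 1.53 ± 0.187 times the *ITGB1* level in siNT and 0.821 ± 0.0542 times in siLTBP2. This picture depends on leaving *ITGA6* out: with it the alpha sum was 315 ± 25.4 in siNT and 382 ± 23.4 in siLTBP2, no longer overlapping, the ratio to *ITGB1* was 1.63 ± 0.197 in siNT and 1.06 ± 0.0676 in siLTBP2, and *ITGA6* alone took 6.22% ± 0.5005 in siNT and 22.3% ± 0.162 in siLTBP2. With *ITGA6* and *ITGB4* included the *ITGA2* share was 9.9% ± 2.80 in siNT and 13.7% ± 1.51 in siLTBP2 and overlapped between the groups. The shares of *ITGA8* and *ITGA3* still did not overlap. All these values are RNA levels, described without a test, and depend on which transcript length is used.

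**Figure D2:**
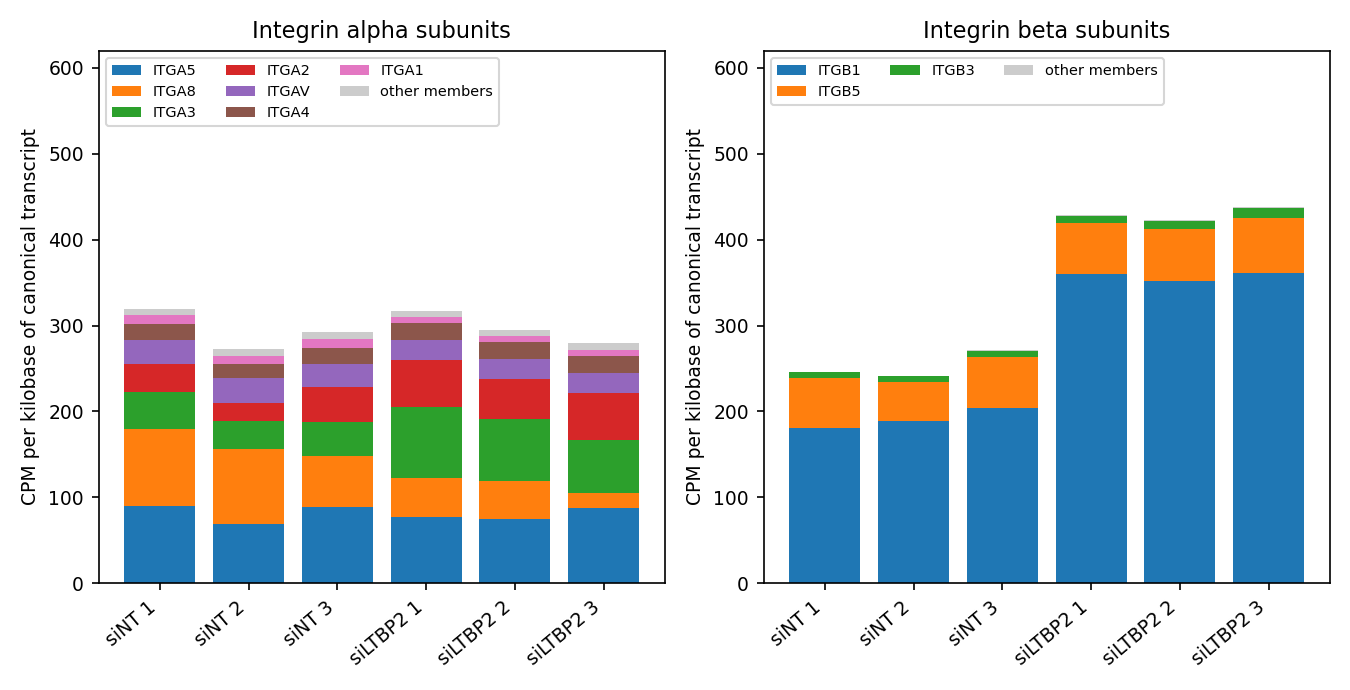
CPM per kilobase of canonical transcript in each of the 6 libraries, stacked by subunit, for the member alpha (left) and beta (right) subunits. The alpha stacks reach similar heights in both groups while the orange part (*ITGA8*) shrinks and the green and red parts (*ITGA3*, *ITGA2*) grow, and the beta stacks are taller in all 3 siLTBP2 libraries, mainly by *ITGB1* (blue).

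Talins and kindlins, the proteins that activate integrins from inside, split as well. *TLN1* (ENSG00000137076, chr9:35696948-35732195, minus strand, 57 exons), the main talin outside muscle and brain, stood at 824, 635 and 702 CPM in siNT libraries 1 to 3 and 1031, 975 and 908 CPM in the siLTBP2 libraries. All siLTBP2 libraries were above all siNT libraries. The log2 fold change was 0.43 ± 0.11 SE (adjusted p = 0.0242), and the call was lost at 0.35 without siNT library 2, 0.42 without siNT library 3, 0.39 without siLTBP2 library 1 and 0.42 without siLTBP2 library 2. *FERMT1* (ENSG00000101311, chr20:6074845-6123214, minus strand, 15 exons), kindlin-1, best known from epithelia, stood at 37.6, 28.9 and 36.2 CPM in siNT libraries 1 to 3 and 27.3, 27.7 and 24.2 CPM in the siLTBP2 libraries. The groups did not overlap, although siNT library 2 came close to the siLTBP2 libraries. It had a log2 fold change of -0.37 ± 0.12 SE (adjusted p = 0.0455), and with 1 library left out the call held only without siNT library 2, being lost at -0.31 without siNT library 1, -0.33 without siNT library 3, -0.40 without siLTBP2 library 1, -0.42 without siLTBP2 library 2 and -0.31 without siLTBP2 library 3. *FERMT2*, the kindlin of fibroblasts, averaged 110.5 ± 7.91 CPM in siNT against 139 ± 28.9 CPM in siLTBP2 (SD, n = 3) and was not called (0.33, adjusted p = 0.106), and neither were *TLN2* (0.20, adjusted p = 0.351) and the blood cell kindlin *FERMT3* (-0.61, adjusted p = 0.0904). *FERMT3* shares 98 exonic bases with the opposite *TRPT1*, which was counted at a mean of 13.6 CPM against 0.936 CPM for *FERMT3*.

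In the complex of integrin-linked kinase, PINCH and parvin, the kinase-like scaffold alone was called. *ILK* (ENSG00000166333, chr11:6603708-6610874, plus strand, 13 exons) stood at 235, 246 and 243 CPM in siNT libraries 1 to 3 and 371, 386 and 331 CPM in the siLTBP2 libraries. The siNT libraries were tight and the lowest siLTBP2 library, library 3, was well above them. Its log2 fold change was 0.59 ± 0.09 SE (adjusted p = 0.00143). *ILK* shares 2374 exonic bases with *TAF10* on the opposite strand, counted at a mean of 3.32 CPM. Its binding partners were not called: *PARVA* averaged 231 ± 12.4 CPM in siNT against 215 ± 9.04 CPM in siLTBP2 (SD, n = 3, log2 fold change -0.10, adjusted p = 0.441), and *PARVB*, *LIMS1* and *LIMS2* (the last 2 encode the PINCH proteins) had log2 fold changes of -0.26, 0.18 and -0.16 with adjusted p of 0.0776, 0.279 and 0.688. The ratio of *ILK* to *PARVA* CPM, again chosen after the values were seen, was 1.05 ± 0.08 in siNT and 1.69 ± 0.11 in siLTBP2 (SD, n = 3).

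Of vinculin and the LIM proteins none rose. *PXN* (ENSG00000089159, chr12:120210439-120265771, minus strand, 15 exons), paxillin, a docking protein for focal adhesion kinase and vinculin, stood at 362, 284 and 356 CPM in siNT libraries 1 to 3 and 246, 254 and 254 CPM in the siLTBP2 libraries. The siLTBP2 libraries were tight and below all siNT libraries, of which library 2 was the lowest. *PXN* shares 1769 exonic bases with the opposite *PXN-AS1*, counted at a mean of 2.25 CPM. The log2 fold change was -0.41 ± 0.10 SE (adjusted p = 0.0199), and the call was lost at -0.35 without siNT library 1, -0.36 without siNT library 3, -0.40 without siLTBP2 library 1 and -0.42 without siLTBP2 library 2. *TGFB1I1* (ENSG00000140682, chr16:31471585-31477960, plus strand, 11 exons), the paxillin relative Hic-5 that is induced by TGF-beta in many fibroblasts, stood at 130.2, 124 and 125 CPM in siNT libraries 1 to 3 and 96.4, 107 and 105 CPM in the siLTBP2 libraries. The groups did not overlap. Its log2 fold change was -0.30 ± 0.08 SE (adjusted p = 0.0242), and the call was lost at -0.28 without siNT library 1, -0.31 without siNT library 3, -0.26 without siLTBP2 library 1 and -0.33 without siLTBP2 library 2. *VCL* (ENSG00000035403, chr10:73995193-74121363, plus strand, 22 exons), vinculin, which reinforces talin's link to actin under load, stood at 750.3, 620.2 and 645 CPM in siNT libraries 1 to 3 and 691, 624 and 630.4 CPM in the siLTBP2 libraries. The groups overlapped throughout, and the log2 fold change was -0.05 ± 0.10 SE (adjusted p = 0.78), with 1109 exonic bases shared with the opposite *AP3M1* at a mean of 74.6 CPM. *ZYX*, zyxin, which gathers at stretched actin fibres, averaged 702 ± 106 CPM in siNT against 576 ± 29.3 CPM in siLTBP2 (SD, n = 3) and was not called (-0.29, adjusted p = 0.121).

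Tensins, which mark the fibrillar adhesions where fibronectin is assembled, held the 2 lowest log2 fold changes among the adaptors. *TNS3* (ENSG00000136205, chr7:47275154-47582558, minus strand, 31 exons) stood at 1300.4, 1168 and 1059 CPM in siNT libraries 1 to 3 and 710.0, 732 and 572 CPM in the siLTBP2 libraries. Each siLTBP2 library was far below the lowest siNT library, and library 3 was the lowest in both groups. The log2 fold change was -0.81 ± 0.12 SE (adjusted p = 0.00141), with 57.1% of the siNT level left. *TNS1* (ENSG00000079308, chr2:217799588-218033982, minus strand, 33 exons) stood at 14.5, 10.3 and 6.27 CPM in siNT libraries 1 to 3 and 5.23, 6.51 and 4.76 CPM in the siLTBP2 libraries. The groups overlapped, since siNT library 3 was below siLTBP2 library 2, and the siNT values spread more than 2-fold. It had a log2 fold change of -0.91 ± 0.26 SE (adjusted p = 0.032), and the call was lost at -0.59 without siNT library 1, -0.92 without siNT library 2, -0.88 without siLTBP2 library 1 and -0.81 without siLTBP2 library 3. *TNS2* averaged 90.8 ± 12.2 CPM in siNT against 78.7 ± 24.6 CPM in siLTBP2 (SD, n = 3), with library 3 the lowest of both groups, and was not called (-0.21, adjusted p = 0.524).

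The signalling adaptors of the FAK and Cas module were not called. *PTK2* (ENSG00000169398), focal adhesion kinase, stood at 145, 144 and 143 CPM in siNT libraries 1 to 3 and 157, 159 and 157 CPM in the siLTBP2 libraries. The groups were tight and did not overlap, and the log2 fold change was 0.13 ± 0.07 SE (adjusted p = 0.27). *BCAR1*, p130Cas, a scaffold that is phosphorylated when stretched, averaged 179 ± 30.8 CPM in siNT against 208 ± 24.1 CPM in siLTBP2 (SD, n = 3, log2 fold change 0.22, adjusted p = 0.284).

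**Figure D3:**
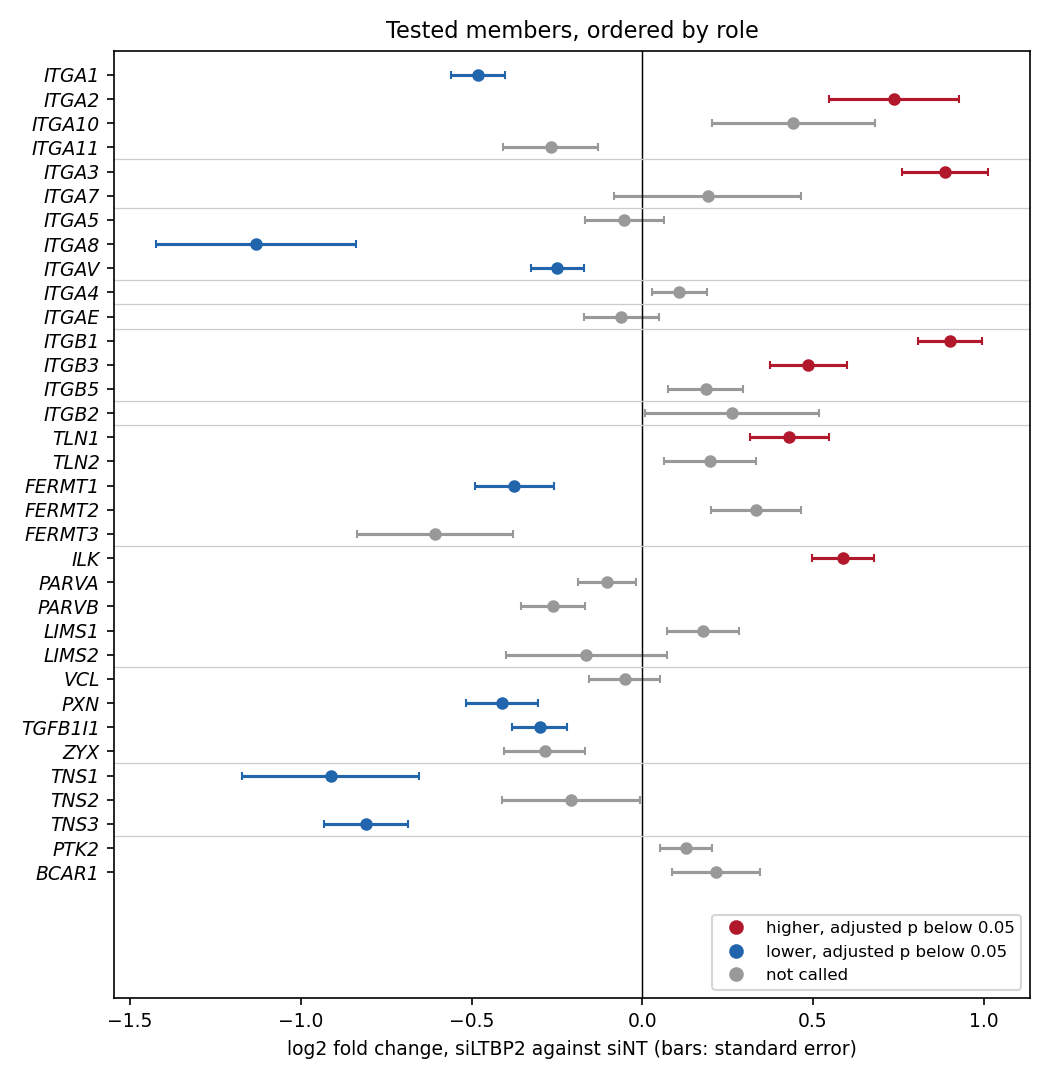
Log2 fold change of siLTBP2 against siNT for the 34 tested members, with standard error bars, in blocks by role from collagen receptors at the top to the FAK and Cas module at the bottom. Red members (6) were higher and blue members (8) lower at an adjusted p below 0.05, and grey members were not called.

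How far these calls rest on single libraries differs between members. Refitting without each library in turn left the calls of *ITGB1* (0.86 to 0.95), *ITGA3* (0.79 to 0.99), *ILK* (0.54 to 0.65), *ITGA1* (-0.52 to -0.45) and *TNS3* (-0.88 to -0.70) in place in all 6 fits, and these 5 also kept their calls in the other 10 alternative fits. The remaining 9 called members lost their call in 1 to 6 of the 6 fits, and all 14 kept their sign in every one. The number of called members fell to 6 without siNT library 1, 9 without siNT library 3, 8 without siLTBP2 library 1 and 9 without siLTBP2 library 2, with 11 in the other 2 fits. The share of all genes called in these fits is not given here, so the drop cannot be read as particular to the members.

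**Figure D4:**
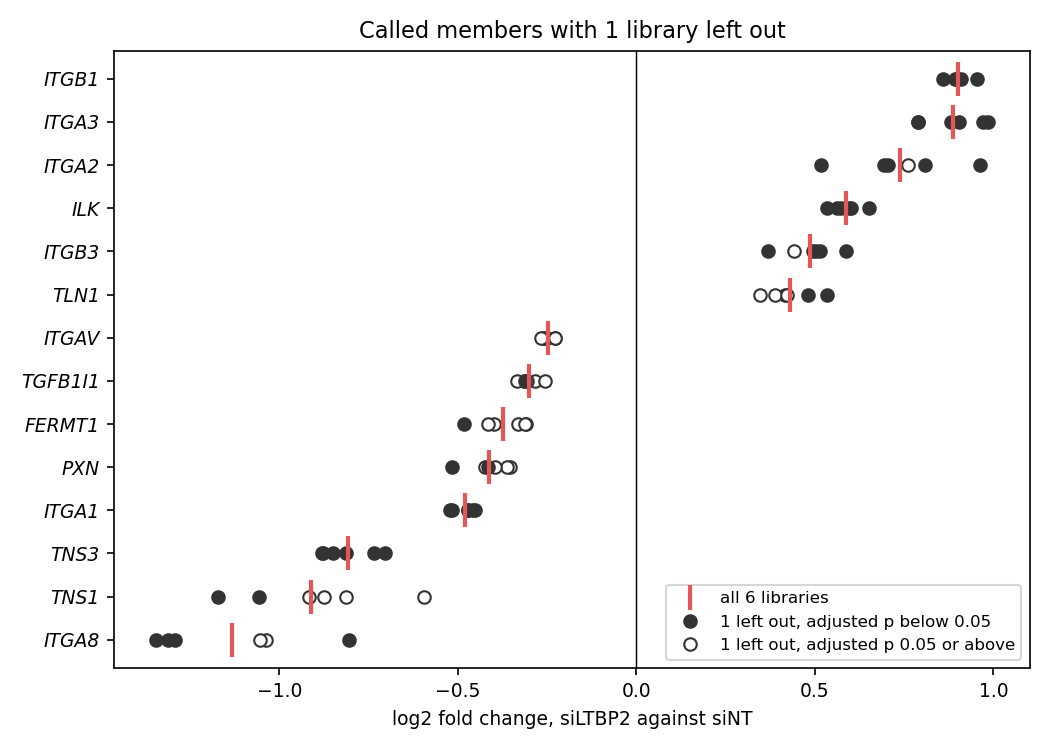
Log2 fold change of the 14 called members with all 6 libraries (red bar) and with 1 library left out (6 points each, filled where the adjusted p stayed below 0.05, open where it did not). Points of *ITGB1*, *ITGA3*, *ILK*, *ITGA1* and *TNS3* are all filled, those of *ITGAV* are all open, and none crosses 0.

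The word GCACCCA stands in the 3′ untranslated regions of 5 tested members, none of which had a higher level in siLTBP2, and its sites are shown so that they can be read beside the one in the targeted RNA. It was chosen because its carriers were lower across all genes in these same libraries, so that its values here are no independent evidence. In GRCh38, on the strand of the gene and with the word in capitals, the 23-base sites were read from the last exon of the canonical transcripts. *ITGA1* carries it at chr5:52955503-52955525 and chr5:52956702-52956724 (exon 29), *ITGA11* at chr15:68302364-68302386 and chr15:68299597-68299619 (exon 30), *FERMT3* at chr11:64223583-64223605 (exon 15), *PARVA* at chr11:12530556-12530578 (exon 13) and *TNS1* at chr2:217803857-217803879 and chr2:217801709-217801731 (exon 33). The 3′ untranslated region of *LTBP2* itself holds it at chr14:74500047-74500069 (exon 36).
ITGA1, first site: gctacacaGCACCCAttctttaa
ITGA1, second site: ctccaaatGCACCCAacaatcgc
ITGA11, first site: cgggctctGCACCCAcgtgcatt
ITGA11, second site: aactcactGCACCCAtgcctcac
FERMT3: ccaggcagGCACCCAgctgggca
PARVA: ctcctccgGCACCCAttacctct
TNS1, first site: gtgtgtctGCACCCAcatcctca
TNS1, second site: cgggctgtGCACCCAtgcacaca
LTBP2: gggatacaGCACCCAtctacaaa

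Of the 34 tested members 5 (14.7%) carried the word, against 1455 (11.8%) of 12312 tested coding genes with a 3′ untranslated region of at least 50 bases. All 5 had a log2 fold change below 0: -0.91 in *TNS1*, -0.61 in *FERMT3*, -0.48 in *ITGA1*, -0.27 in *ITGA11* and -0.10 in *PARVA*, of which *TNS1* and *ITGA1* were called, as were 505 of the 1455 carriers among all coding genes. Their median was -0.48, and that of the other 29 members was 0.13. The carriers *PARVA*, *ITGA1*, *ITGA11* and *TNS1* also have the longest 3′ untranslated regions of the tested members (7431, 6758, 6527 and 4668 bases). That of *FERMT3* has 399, and the longest without the word, in *PARVB*, has 4261. Carriers and others thus differ in length as well, and the part of length was not tested. Over all coding genes the medians were -0.15 in carriers and 0.02 in the others. *ITGA8* and *TNS3*, 2 of the 3 members with the lowest log2 fold changes, do not carry the word in the canonical transcript. Whether the word, or reads of *TRPT1* counted on *FERMT3*, have a part in these differences was not tested.

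The genes around the members were read from 4 lists: other focal adhesion proteins, regulators of integrin activity and traffic, membrane partners, and ligands. Of 124 genes 114 were tested, and 26 were higher and 18 lower in siLTBP2 (38.6% called, against 19.3% of all genes), with a median log2 fold change of 0.02. Among protein-coding genes with a mean of at least 10 CPM 25.5% were called. These lists too were chosen with earlier results of these data known. Higher shares in them, here and below, are therefore no independent evidence. Among other focal adhesion proteins 14 of 58 rose and 10 fell. Highest among them were *LPXN*, leupaxin of the paxillin family (29.4 ± 5.80 CPM in siNT against 47.1 ± 1.72 CPM in siLTBP2, SD, n = 3, log2 fold change 0.68 ± 0.13 SE, adjusted p = 0.00561), the kinase *PAK1* (0.62, adjusted p = 0.000785) and the Src family kinase *FYN* (0.51, adjusted p = 0.00453). Lowest were the adaptor *SHC1* (366 ± 8.87 CPM in siNT against 215 ± 14.9 CPM in siLTBP2, log2 fold change -0.77 ± 0.09 SE, adjusted p = 0.000258), the adaptor *NCK1* (-0.67, adjusted p = 0.000474) and the actin cross-linker *PALLD* (-0.55, adjusted p = 0.00227). The 24 calls of this list became 16 without siNT library 1, 14 without siNT library 2, 13 without siNT library 3, 13 without siLTBP2 library 1, 9 without siLTBP2 library 2 and 15 without siLTBP2 library 3. For these fits too the share of all genes called is not given here.

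Regulators of integrin activity and traffic were called in 3 of 15, a share of 20%, close to the 19.3% of all genes. The endocytic adaptor *NUMB* rose (0.53, adjusted p = 0.00168), as did the small GTPase *RAP1B*, which recruits talin (0.40, adjusted p = 0.00812), and *SHARPIN*, which holds integrins inactive, fell (-0.44, adjusted p = 0.0108). Membrane partners were called in 8 of 16 (50%, against 19.3% of all genes), 3 higher and 5 lower. *PLAUR*, the urokinase receptor, rose (44.3 ± 7.49 CPM in siNT against 123 ± 20.9 CPM in siLTBP2, SD, n = 3, log2 fold change 1.47 ± 0.15 SE, adjusted p = 0.000134), as did *SDC1*, syndecan-1 (0.99, adjusted p = 0.000414), and the tetraspanin *CD82* (0.79, adjusted p = 0.000968). The laminin receptor partner *CD151* fell (168 ± 5.81 CPM in siNT against 82.0 ± 8.97 CPM in siLTBP2, SD, n = 3, log2 fold change -1.04 ± 0.09 SE, adjusted p = 8.32e-05), with the tetraspanin *TSPAN4* (-0.81, adjusted p = 0.000236) and the hyaluronan receptor *CD44* (-0.71, adjusted p = 0.00456).

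Ligands were called in 9 of 25 (36%, against 19.3% of all genes), 7 higher and 2 lower. With no filter on low counts 17 ligands were called. Among the called ligands *TNC*, tenascin-C, had the highest log2 fold change (133 ± 24.4 CPM in siNT against 383 ± 25.7 CPM in siLTBP2, SD, n = 3, log2 fold change 1.52 ± 0.13 SE, adjusted p = 7.11e-05), followed by *SPP1*, osteopontin (1.44, adjusted p = 0.00114), and *FN1*, fibronectin (1164 ± 137 CPM in siNT against 1969 ± 152 CPM in siLTBP2, log2 fold change 0.76, adjusted p = 0.00161). *THBS1*, thrombospondin-1, fell (-1.32, adjusted p = 0.000104), as did *VCAM1* (-1.13, adjusted p = 0.0225). The groups overlapped in *VCAM1*, since siNT library 1 (3.96 CPM) was below siLTBP2 library 2 (4.17 CPM). Fibronectin rose beside alpha chains of its receptors that were not called higher: *ITGA5* and *ITGA4* were not called, and *ITGA8* fell. *ITGA4* was nonetheless higher in every siLTBP2 library than in any siNT library. The beta chain *ITGB1* rose, and the tensins *TNS1* and *TNS3* fell. The calls of *ITGA8* and *TNS1* were each lost in some fits without 1 library, and the groups overlapped in *TNS1*.

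**Figure D5:**
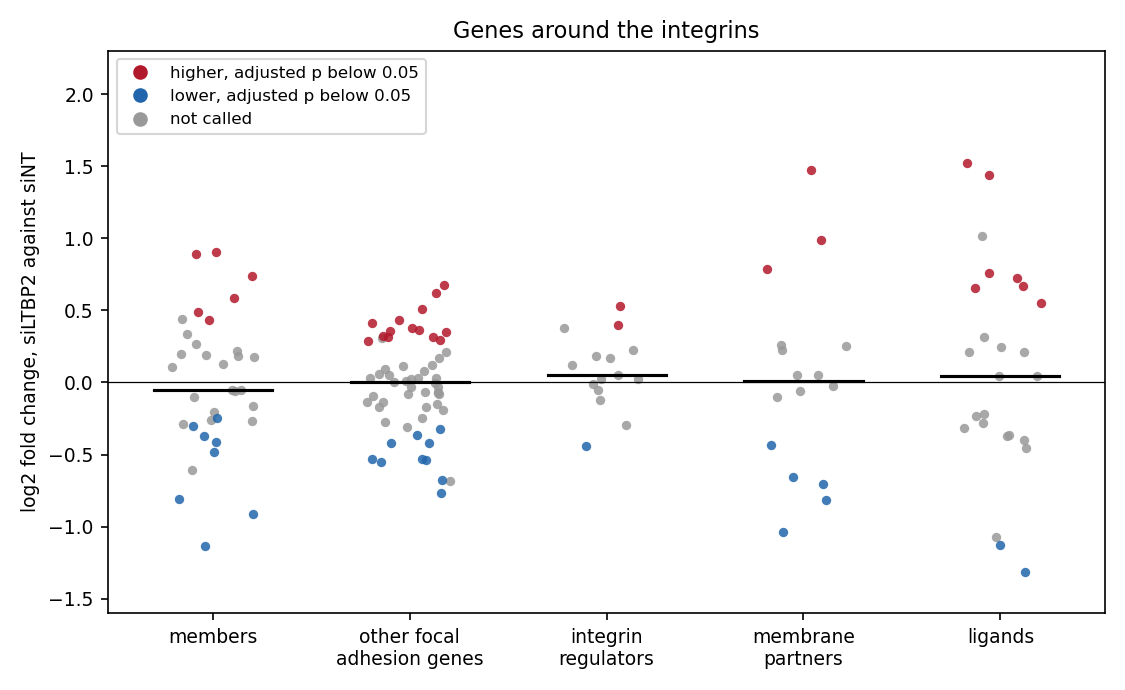
Log2 fold change of siLTBP2 against siNT for the tested members and for the tested genes of 4 surrounding lists, 1 point per gene, with the median of each list as a bar. Red and blue points passed an adjusted p below 0.05, the medians lie between -0.05 and 0.05, and called genes stand on both sides in each list.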

How the data were processed

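RNA of 3 siNT and 3 siLTBP2 samples of CCD18Co was sequenced as ribosomal RNA depleted, stranded libraries. Per the submitters' processing notes reads were handled with bcl2fastq, STAR 2.7.1a and HTSeq 0.11.2 on GRCh38, and the deposited values are raw counts of reads per gene, without normalization, as made by the authors. No annotation release or strand setting is given in the sources used here. Groups and replicate numbers come from the labels, and the table held 0 columns of other series. Of its 60663 genes, 27067 were at 0 in every library.

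The counts were tested with edgeR 4.0.16 in R 4.3.3 (filterByExpr with a minimum count of 10, TMM, estimateDisp, glmQLFit and glmQLFTest, two-sided, no block) on all 16920 genes that passed the filter, with Benjamini-Hochberg adjustment over them. A gene was called at an adjusted p below 0.05. The SE of a log2 fold change was taken as its size over the root of the F statistic. CPM are TMM-normalized and were divided by the length of the GENCODE 44 canonical transcript for levels per kilobase. Library totals were 44663424 to 53576899 counts. Replicate libraries differed well beyond sampling noise (chi-square per degree of freedom 28.01 to 55.05), so that the spread between libraries, not these totals, set the precision. Intervals were not computed.

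Members with an adjusted p below 0.05 and *ITGB1*, *ITGAV*, *ITGA5*, *ITGA8*, *ITGA11*, *TLN1*, *VCL*, *PXN*, *PTK2* and *ILK* whatever their p were given in full, with the remaining members in brief. Of each surrounding list up to 3 higher and 3 lower called genes of largest change with a mean of at least 1 CPM were named. The members and lists were chosen with earlier results of these data known. Alternatives were edgeR's likelihood ratio test, DESeq2 1.42.0, no filter, 1 CPM in 3 libraries, scaling by RLE, upper quartile or total counts, a replicate block, the union of exons as length and leaving out each library. The quasi-likelihood fit was tested on simulated counts with known fold changes, in which libraries were drawn independently with no effect of replicate number. The summed level of 1 marker list is not reported here. Words were sought in 3′ untranslated regions of the canonical transcripts on the strand of the gene.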

Additional observations from a re-analysis of the deposited data

How the results depend on the processing

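Counts of called members stayed within 1.5 times of 14 with the likelihood ratio test, DESeq2, other scalings and other filters (13 to 15), and no scaling moved the median of all genes by more than 0.04. At an adjusted p below 0.01 the count was 5. Leaving out 1 library gave 6 to 11 called members, 4 to 6 of them higher and 2 to 6 lower, and 9 to 16 other focal adhesion genes. One member passed an adjusted p below 0.01 with a fold change above 2 under the likelihood ratio test or with no filter (*ITGA8*, 1), and without siNT library 3 (*TNS1*, 1), against 0. With no filter 17 ligands were called against 9. Leaving out replicate 3 of both groups, added after the data were seen, left 8 members, 4 higher and 4 lower, 1 of them (*TNS1*) past the fold limit, and 12 other focal adhesion genes. For the fits with libraries left out, the share of all genes called is not given here.

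With the replicate number as a block 24 members were called, 12 higher and 12 lower, among them the 14 of the unblocked test with none reversed in sign, and with the block in the likelihood ratio test 25, 12 higher and 13 lower. With the block 6 regulators (against 3) and 21 ligands (against 9) were called in both tests, and 1 member, *ITGA8*, passed the fold limit. The SE of the targeted gene *LTBP2* fell with the block too, from 0.15 to 0.10, and that of *ITGA8* from 0.29 to 0.10. The share of all genes called with the block is not given here, so these counts cannot be read as particular to the members or lists. The deviations from the group means had correlations of 0.298, 0.0832 and 0.428 between libraries 1, 2 and 3 of the groups. Between siNT library 2 and siLTBP2 library 1 the correlation was higher than for number 2 (0.103), and between the remaining libraries of unlike number it was -0.391 to 0.0189. The libraries were not treated as pairs.

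The difference in the *ITGB1* share of the beta sum was 7.59 percentage points and 11.1 with the union of exons as length, and that in the *ITGA3* share of the alpha sum was 8.64 points with the union and 6.44 with *ITGA6* and *ITGB4* added, the last chosen after the data were seen. Of 288 alternative fits of 18 named members, 244 kept direction and side of the threshold, 39 lost the call, 2 gained it (*ITGA11* with the replicate block, -0.25 in both tests) and 3 uncalled values near 0 changed sign, *ITGA5* without siNT library 1 (0.0088) or 3 (0.0023) and *VCL* without siNT library 1 (0.0302). Without 1 library *ITGA5* ranged from -0.1654 to 0.0088 and *VCL* from -0.1055 to 0.0302. The causes were not tested. Counting depth limits what can be said of the 9 untested subunits and of *ITGA7*, *FERMT3* and *ITGB2*.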
